A study of Rattus norvegicus with 12 samples.

Results

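The receptors for corticosterone and a set of genes that glucocorticoids are known to switch on were measured in the brains of rats that had taken cocaine. The list held 8 genes: Nr3c1, Nr3c2, Fkbp5, Tsc22d3, Sgk1, Errfi1, Pdk4 and Zbtb16. Every probe set annotated to one of these symbols was taken, whatever its signal, which gave 10 of the 31099 probe sets on the array. They covered 7 of the 8 genes (of 14217 genes named on the array), with 2 probe sets each for Nr3c1, Fkbp5 and Pdk4 and 1 each for Nr3c2, Tsc22d3, Sgk1 and Errfi1. No probe set was annotated to Zbtb16, which encodes a zinc finger repressor of transcription, and it was not analysed here.

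Male Wistar rats earned intravenous cocaine at 0.3 mg/kg per injection (40 µl) on a fixed-ratio 1 schedule in 4 sessions of 2 h, 1 a day, and were killed 2 h after the last session with pentobarbital. Each array (Affymetrix Rat 230 2.0) carried labelled cRNA from 6 µg of total RNA of 2 pooled rats. The 4 groups, with 3 arrays each, were nucleus accumbens (NAc) with TsA, NAc with vehicle, anterior cingulate cortex (ACC) with TsA, and ACC with vehicle. All 4 groups had self-administered cocaine, so no group shows these genes without the drug. The labels do not spell out TsA, by which trichostatin A, a histone deacetylase inhibitor, is usually meant. Its dose, route and timing and the age of the rats are not given in the sources used here. The arrays of a group are separate pools of rats, and the labels do not say whether NAc and ACC tissue of the same rats was used. With 3 arrays a group, precision is limited by their number.

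Corticosterone crosses into the brain and binds the mineralocorticoid receptor with high affinity and the glucocorticoid receptor with lower affinity, so that the glucocorticoid receptor fills mainly during stress and at the daily peak of the hormone. Both are transcription factors that wait in the cytoplasm in a complex with heat shock proteins and move to the nucleus with hormone bound, where they act at response elements or through other factors. Several of the genes that they induce feed back on the hormone signal or change metabolism and growth factor signalling in neurons, glia and vessels.

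Values are the deposited signals, on a linear scale and already scaled to the same trimmed mean on every array. A level can be compared between arrays for 1 probe set, and not between probe sets. Differences are on the scale of log2(signal + 16), which understates the change of dim probe sets, and come from 1 limma model over all 12 arrays. A call is an adjusted p under 0.05 (Benjamini-Hochberg over the 18625 probe sets that were not dim). Of the 10 probe sets, 9 entered that test. The exception was Nr3c1 1368222_at, with a mean signal of 16.1 over the 12 arrays, under the limit of 17.4.

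Run records put the arrays in 3 wash batches of 4 each, and batch and group were largely tied. Batch 1 held ACC vehicle arrays 1 to 3 and ACC TsA array 1. Batch 2 held NAc vehicle arrays 1 and 2 with ACC TsA arrays 2 and 3, and batch 3 held NAc TsA arrays 1 to 3 with NAc vehicle array 3. Markers separated the tissues as labelled. The summed signal of 10 markers of striatal projection neurons was 11418 to 14412 on NAc arrays and 1148 to 1316 on ACC arrays, and that of 7 markers of cortical glutamatergic neurons was 262 to 757 on NAc arrays and 2989 to 3409 on ACC arrays. Oligodendrocyte markers, 11 in all, summed to 15421 to 19228 on NAc arrays and 6653 to 8039 on ACC arrays. In the NAc all 10 striatal and all 11 oligodendrocyte markers were higher and 6 of the 7 cortical ones lower. Of 11 markers of endothelial cells and pericytes 0 passed, and their summed signals were 1429 to 1744 on NAc arrays and 1496 to 1724 on ACC arrays. All 8 markers of meninges and fibroblasts were lower in the NAc, with sums of 218 to 293 on NAc arrays and 422 to 1021 on ACC arrays. No marker was at 0 on any array. Among the striatal and cortical markers the dimmest were the striatal Gpr6 in the ACC (mean 2.02) and the cortical Tbr1 in the NAc (mean 14.7). These and the fibroblast gene Ogn in the NAc (mean 14.2) lay under the limit of 17.4 in the structure where they were lower. So did Calcr, Nts and Ecel1, markers of septum, pallidum and diencephalon, in the ACC (means 2.80, 3.32 and 10.2).

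The first comparison asked whether the receptors and their response genes differ between the NAc and the ACC of these rats, averaged over TsA and vehicle. Of the 9 probe sets tested, 8 differed: 7 were higher in the NAc and 1, Tsc22d3, was lower. Over all probe sets the test called 44.8%, 24.4% higher and 20.4% lower, so a call is common in this comparison. Pdk4 1369150_at, with an ACC mean under the limit, entered the test through the NAc alone, so the direction of its difference was fixed beforehand. Of the 8 probe sets above the limit in both structures, 7 differed, 6 higher and 1 lower. Among the 9, Sgk1 and then Pdk4 1378074_at had the largest differences. Each signal comes from all cells of the tissue, and more cells of a type cannot be told apart from more RNA per cell in any value below.

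**Figure D1:**
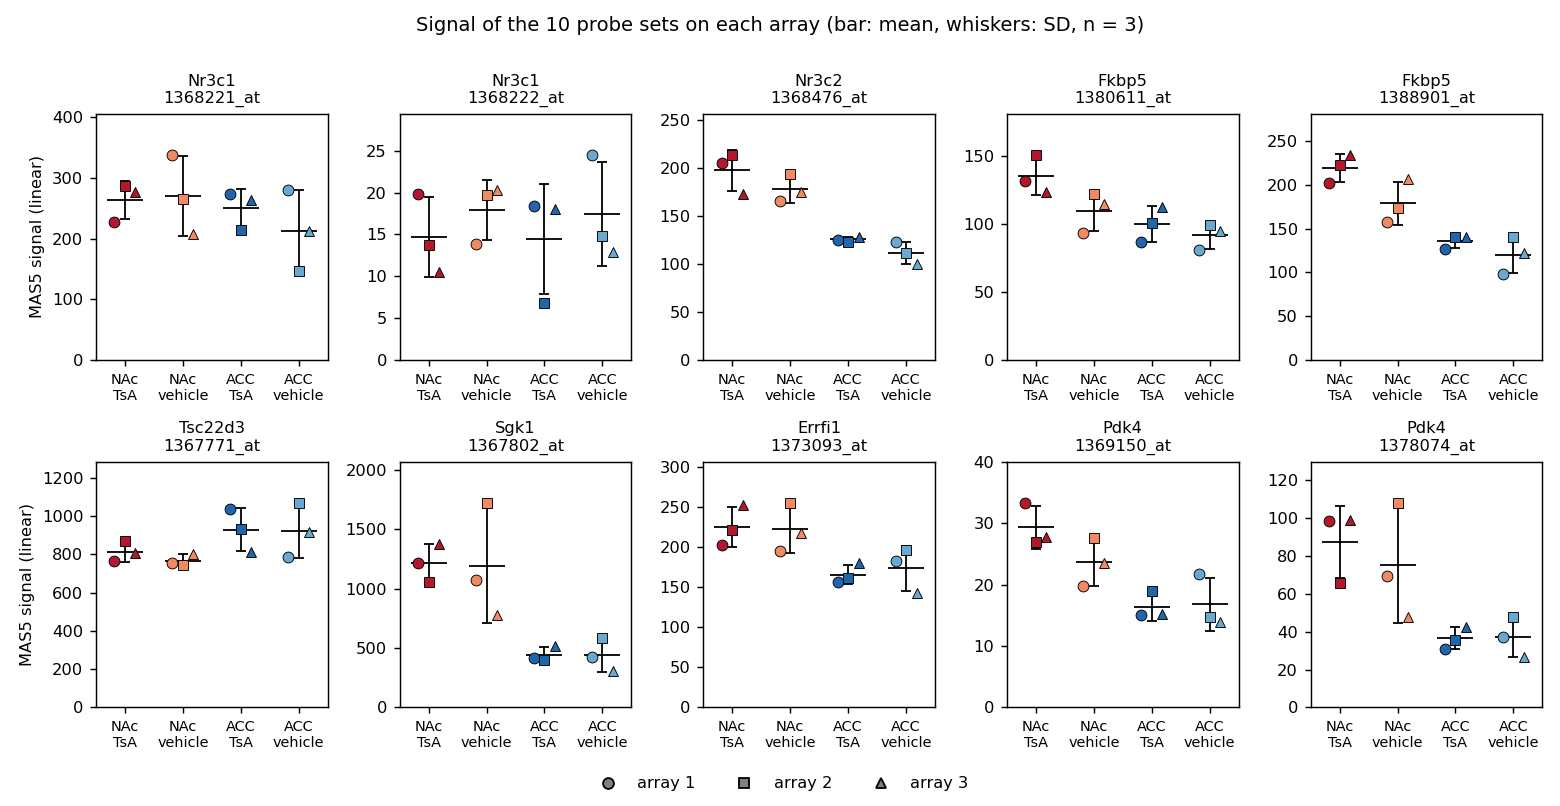
MAS5 signal (linear axis from 0) of each probe set on each array, with NAc TsA, NAc vehicle, ACC TsA and ACC vehicle from left to right. Marker shape gives the array number, bars the mean and whiskers the SD of 3 arrays. Sgk1 separates the structures, with 782 to 1727 on NAc arrays and 306 to 586 on ACC arrays, while the Nr3c1 groups overlap.

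Nr3c1, which encodes the glucocorticoid receptor, had signals of 228, 287 and 277 with TsA and 338, 265 and 207 with vehicle in the NAc at probe set 1368221_at. In the ACC it had 274, 215 and 263 with TsA and 281, 146 and 212 with vehicle. The structures overlapped over most of their range, with the lowest value on ACC vehicle array 2. The mean was 267 ± 46.1 in the NAc and 232 ± 51.2 in the ACC (SD, n = 6 each), and the difference of 0.20 ± 0.15 (SE) did not pass (limma, adjusted p = 0.278). Its 95% interval ran from -0.11 to 0.52. The other Nr3c1 probe set averaged 16.3 ± 4.17 in the NAc and 15.9 ± 5.94 in the ACC, too dim to show a difference.

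Nr3c2 encodes the mineralocorticoid receptor, which in the brain is best known from the hippocampus. Its signals at 1368476_at were 205, 213 and 173 with TsA and 165, 194 and 175 with vehicle in the NAc. In the ACC they were 125, 123 and 128 with TsA and 123, 111 and 100.3 with vehicle. Every NAc array lay above every ACC array, which was so for 14.4% of all probe sets (27.1% in either direction). The mean was 188 ± 19.4 in the NAc and 118 ± 10.7 in the ACC (SD, n = 6 each), a log2 difference of 0.60 ± 0.08 (limma, adjusted p = 2.70e-05). Between arrays of a group Nr3c2 was among the steadier probe sets: its pooled SD within groups was 0.113 on the log2 scale, against a median of 0.158 over all probe sets tested. That of Nr3c1 1368221_at was 0.3002, a wider spread than in 90.3% of the probe sets.

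Fkbp5 encodes FKBP51, a co-chaperone of Hsp90 that lowers the receptor's affinity for hormone and is itself induced by the receptor, which makes a short feedback loop. At 1388901_at its signals were 202, 223 and 234 with TsA and 157, 173 and 206 with vehicle in the NAc. In the ACC they were 127, 140.3 and 140.3 with TsA and 98.7, 140.4 and 122 with vehicle. The NAc arrays all lay above the ACC arrays, with means of 199 ± 29.2 in the NAc and 128 ± 16.5 in the ACC and a log2 difference of 0.58 ± 0.09 (limma, adjusted p = 0.000168). The second probe set, 1380611_at, averaged 123 ± 19.0 in the NAc and 95.9 ± 11.2 in the ACC, and its difference was smaller, 0.30 ± 0.09 (limma, adjusted p = 0.0138), with overlapping structures. Both probe sets pointed the same way.

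Tsc22d3 encodes GILZ, a leucine zipper protein through which glucocorticoids dampen inflammatory signalling. It was the only one of the 9 probe sets that was lower in the NAc. Its signals were 766, 870.4 and 807 with TsA and 753, 743 and 804 with vehicle in the NAc. In the ACC they were 1039, 934 and 813 with TsA and 787, 1071 and 914 with vehicle. The structures overlapped: ACC vehicle array 1 and ACC TsA array 3 lay within the range of the NAc. The means were 791 ± 47.0 in the NAc and 926 ± 115 in the ACC, a log2 difference of -0.22 ± 0.08 that passed narrowly (limma, adjusted p = 0.0458). The call was lost when ACC vehicle array 2 or 3, ACC TsA array 1 or 2, NAc vehicle array 1 or 2, or NAc TsA array 1 or 3 was left out (adjusted p from 0.0678 to 0.119).

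Sgk1, the serum- and glucocorticoid-regulated kinase, acts on ion channels and transporters and is induced quickly by the receptor. Its signals at 1367802_at were 1214, 1061 and 1381 with TsA and 1078, 1727 and 782 with vehicle in the NAc. In the ACC they were 420.2, 398 and 515 with TsA and 425, 586 and 306 with vehicle. The structures did not overlap, although the vehicle arrays spread widely in both. The mean was 1207 ± 322 in the NAc and 442 ± 97.2 in the ACC (SD, n = 6 each), a ratio of 2.73 and a log2 difference of 1.404 ± 0.18 (limma, adjusted p = 3.01e-05).

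Pdk4 encodes a pyruvate dehydrogenase kinase that shuts pyruvate out of the mitochondrial citrate cycle when fat is burned. At its brighter probe set, 1378074_at, signals were 98.4, 65.7 and 98.9 with TsA and 69.5, 108 and 48.0 with vehicle in the NAc. In the ACC they were 31.1, 35.6 and 42.6 with TsA and 37.4, 48.0 and 26.4 with vehicle. The structures touched at a single point, where NAc vehicle array 3 and ACC vehicle array 2 had nearly equal signals. The means were 81.5 ± 23.8 in the NAc and 36.9 ± 7.76 in the ACC, a ratio of 2.21 and a log2 difference of 0.86 ± 0.16 (limma, adjusted p = 0.000635). The dimmer probe set, 1369150_at, averaged 26.5 ± 4.55 in the NAc and 16.6 ± 3.10 in the ACC, with a fitted difference of 0.38 ± 0.09 (limma, adjusted p = 0.00282). The ACC mean lies under the limit of 17.4, so the size of that difference is not measured on the ACC side.

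Errfi1 encodes Mig-6, an inhibitor of the kinase domain of the EGF receptor. Its signals at 1373093_at were 204, 221 and 253 with TsA and 196, 256 and 218 with vehicle in the NAc, and 157, 161 and 180.03 with TsA and 183, 197 and 143 with vehicle in the ACC. Only the lowest NAc array and the highest ACC array overlapped. The means of 225 ± 25.0 in the NAc and 170.1 ± 19.9 in the ACC differed by 0.37 ± 0.09 on the log2 scale (limma, adjusted p = 0.00582).

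Much of this list of calls depended on how the wash batches were treated. With batch as a block, 3 of the 9 probe sets passed, beside 22.5% of all probe sets: Sgk1 at 1.86 ± 0.35 (limma, adjusted p = 0.00347), Pdk4 1378074_at at 1.17 ± 0.31 (adjusted p = 0.019) and Nr3c2 at 0.61 ± 0.18 (adjusted p = 0.0313). The same fit gave 0.29 ± 0.19 for Fkbp5 1388901_at (adjusted p = 0.287), 0.08 ± 0.20 for Fkbp5 1380611_at (adjusted p = 0.809), 0.32 ± 0.22 for Errfi1 (adjusted p = 0.311), 0.32 ± 0.21 for Pdk4 1369150_at (adjusted p = 0.289) and -0.12 ± 0.18 for Tsc22d3 (adjusted p = 0.660). Nr3c1 stood at 0.66 ± 0.31 there and did not pass either (adjusted p = 0.138). Batch 2 is the only one with both structures, as 2 NAc vehicle arrays and 2 ACC TsA arrays, so treatment and structure differ together within it. There the differences were 1.56 for Sgk1 (limma, adjusted p = 0.00192), 0.91 for Pdk4 1378074_at (adjusted p = 0.0154) and 0.46 for Nr3c2 (adjusted p = 0.0569). The Fkbp5 probe sets differed by 0.21 (1388901_at, adjusted p = 0.319) and 0.00 (1380611_at, adjusted p = 0.993) within that batch, Errfi1 by 0.36, Pdk4 1369150_at by 0.26 and Tsc22d3 by -0.22, none past the threshold.

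**Figure D2:**
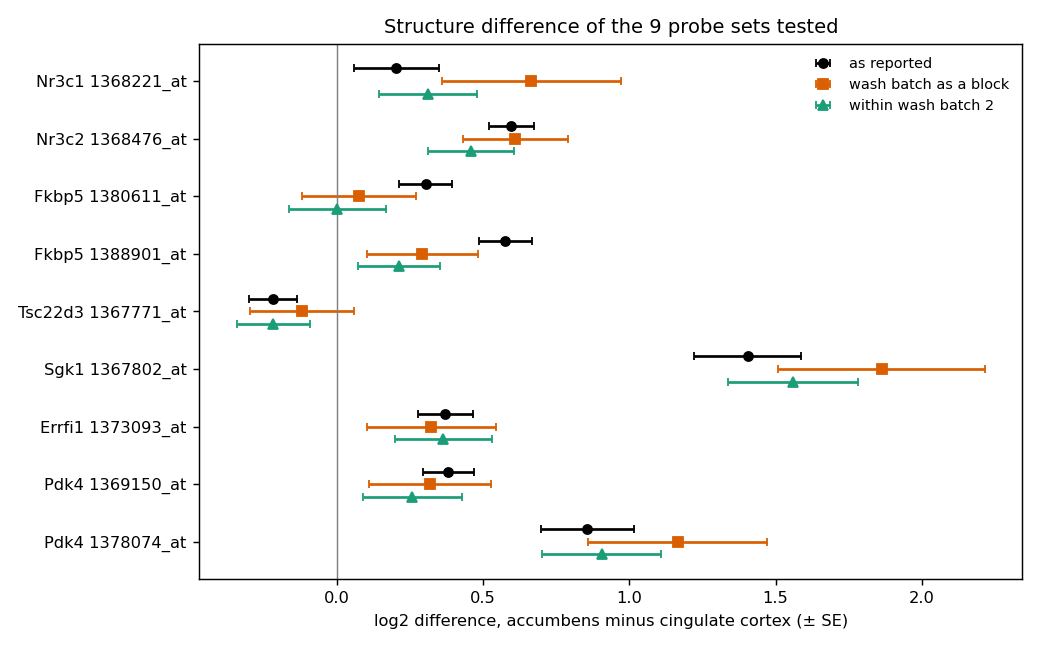
Log2 difference (NAc minus ACC) with its SE for the 9 probe sets tested: as reported from all 12 arrays, with wash batch as a block, and within wash batch 2 (2 arrays against 2). Sgk1 (1.404, 1.86 and 1.56), Pdk4 1378074_at (0.86, 1.17 and 0.91) and Nr3c2 (0.60, 0.61 and 0.46) stay well above 0 in the 3 fits, while Fkbp5 1380611_at has 0.30, 0.08 and 0.00.

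The summed markers of oligodendrocytes, of striatal projection neurons, of cortical neurons and of meninges and fibroblasts moved with the structures too, as given above. So did those of choroid plexus and ependyma, which summed to 523 to 659.6 on NAc arrays and 262 to 358 on ACC arrays. Of these 6 markers only Enpp2, which oligodendrocytes also express, was bright enough to test, and it was higher in the NAc, with wash batch as a block as well. The part of these cell types in the differences of Sgk1, Pdk4, Nr3c2, Fkbp5, Errfi1 and Tsc22d3 was not tested. The sums of the markers of vessels, astrocytes, microglia, blood, and septum, pallidum and diencephalon overlapped between the structures.

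Genes around the receptor were described from 8 lists with 1 probe set per gene, where the test called 23.2% of all genes higher and 21.2% lower in the NAc, with a median difference of 0.03. The medians of 7 lists lay between -0.15 and 0.13, and that of the stress peptide genes was -0.89, which turned to 0.66 without the 2 genes that were under the limit in the NAc.

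Among 11 proteins of the receptor complex and its chaperones 1 was higher and 2 were lower in the NAc, with a median of -0.07. Bag1, a co-chaperone that curbs the receptor, was higher by 0.43 ± 0.08 (258 ± 23.2 in the NAc and 188 ± 21.2 in the ACC). Ppp5c, a phosphatase bound to Hsp90, had -0.42 ± 0.08 (109 ± 10.3 in the NAc and 151 ± 13.3 in the ACC), and Stub1, a ubiquitin ligase that takes chaperone clients for degradation, had -0.41 ± 0.06. With wash batch as a block Ppp5c and Stub1 passed and Bag1 did not. Hsp90ab1, which encodes a form of Hsp90 itself, averaged 2385 ± 199 in the NAc and 2320.2 ± 96.6 in the ACC, without a call. Fkbp4, the partner of Fkbp5 that favours hormone binding, averaged 257 ± 33.3 in the NAc and 269 ± 21.5 in the ACC and was not called either.

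Only 2 genes of corticosteroid metabolism and transport were bright enough to test. Hsd11b1, which makes active corticosterone from its inert keto form, was lower in the NAc at 223 ± 47.3, against 303 ± 34.5 in the ACC, a log2 difference of -0.43 ± 0.12 (limma, adjusted p = 0.0108). The drug efflux pump gene Abcb1a did not pass, with 53.2 ± 20.04 in the NAc and 46.3 ± 10.01 in the ACC.

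Of 17 coregulators and partner factors 4 were higher and 6 lower, with a median of -0.0032. The higher ones were Med1 (0.34), Rela, a subunit of NF-kappaB (0.46), the acetyltransferase Ep300 (0.35) and Med14 (0.23). The lower ones with the smallest p were Jun (-0.66), Tgif1 (-0.64), Nrip1 (-0.40) and the corepressor Ncor1 (-0.21). Jun averaged 234 ± 32.7 in the NAc and 376 ± 37.2 in the ACC. With wash batch as a block 2 of the 17 passed, Jun and Stat3, both lower.

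The 34 other response genes tested, chosen from genes known to answer glucocorticoids in several tissues, split into 6 higher and 11 lower with a median of -0.08. Gpd1, a glycerol phosphate dehydrogenase that is strong in oligodendrocytes, was higher by 1.70 ± 0.10 (1069 ± 158 in the NAc and 316 ± 39.9 in the ACC). Litaf (1.05), the arrestin-like Arrdc2 (0.77) and the transcription factor Klf9 (0.31) were also higher. Rasd1, a small G protein found as dexamethasone-induced, was lower, at -1.66 ± 0.09 (88.3 ± 8.40 in the NAc and 314 ± 36.7 in the ACC). Lower too were the connexin gene Gjb6 (-1.12), which also stands among the astrocyte markers, the phosphatase Dusp6 (-0.95) and the corepressor Tle3 (-0.79). With wash batch as a block 4 were higher and 8 lower, 10 of them called in the same direction as before. Per1, a clock gene with a known response element, had 129 ± 9.77 in the NAc and 136 ± 18.7 in the ACC and was not called.

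Of 9 genes of corticotropin-releasing hormone and related stress peptides on the array, 5 were bright enough to test. Adcyap1 and Crh were under the limit in the NAc and entered through the ACC alone, so the direction of their differences was fixed beforehand. The other 3 all differed, 2 higher and 1 lower in the NAc, also with wash batch as a block. The precursor of the peptide PACAP, Adcyap1, averaged 16.2 ± 5.47 in the NAc and 157 ± 10.9 in the ACC, and Crh 15.8 ± 6.30 in the NAc and 69.8 ± 7.84 in the ACC. The gene of the binding protein of Crh, Crhbp, averaged 42.9 ± 4.36 in the NAc and 93.9 ± 18.3 in the ACC (-0.89 ± 0.11). The PACAP receptor gene Adcyap1r1 was higher in the NAc at 384 ± 29.8, against 239 ± 32.9 in the ACC (0.66 ± 0.09). The melanocortin receptor gene Mc4r was higher as well, at 43.3 ± 8.76 in the NAc and 20.3 ± 1.95 in the ACC (0.70 ± 0.08).

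Relatives of Pdk4 and Sgk1 went both ways. Of 12 tested 4 were higher and 2 lower, with a median of 0.08. Sgk3, a kinase of the same family, was higher by 1.48 ± 0.12 (195 ± 32.7 in the NAc and 59.4 ± 9.76 in the ACC), and Ndrg1, a well-known substrate of Sgk1, by 1.17 ± 0.11 (657 ± 89.0 in the NAc and 282 ± 42.3 in the ACC). Nedd4 (0.35) and Pdk3 (0.20) were higher by less, and Pdk1 (-0.52) and the phosphatase gene Pdp1 (-0.41), which opposes the kinases, were lower. With the batch block Ndrg1, Nedd4, Sgk3 and Pdk1 passed.

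Around Errfi1, 5 genes of the EGF receptor system were tested, with a median of 0.05. Of the 4 above the limit in both structures 1 was higher and 0 lower: the ligand gene Tgfa, at 1.155 ± 0.09 (188 ± 22.5 in the NAc and 75.4 ± 8.24 in the ACC), also with wash batch as a block. The receptor gene Erbb3, with 37.5 in the NAc and 13.7 in the ACC, under the limit there, entered through the NAc alone, and its call was lost with the block. Of 8 relatives of Tsc22d3 and Zbtb16, 2 were higher, Zbtb20 (1.32 ± 0.23) and Tsc22d4 (0.49 ± 0.10), and 1 was lower, Zbtb18 (-1.57 ± 0.07, with 477 ± 48.2 in the NAc and 1441 ± 39.2 in the ACC). The list's median was 0.13. With the block Zbtb20 and Zbtb18 passed and Tsc22d4 did not.

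**Figure D3:**
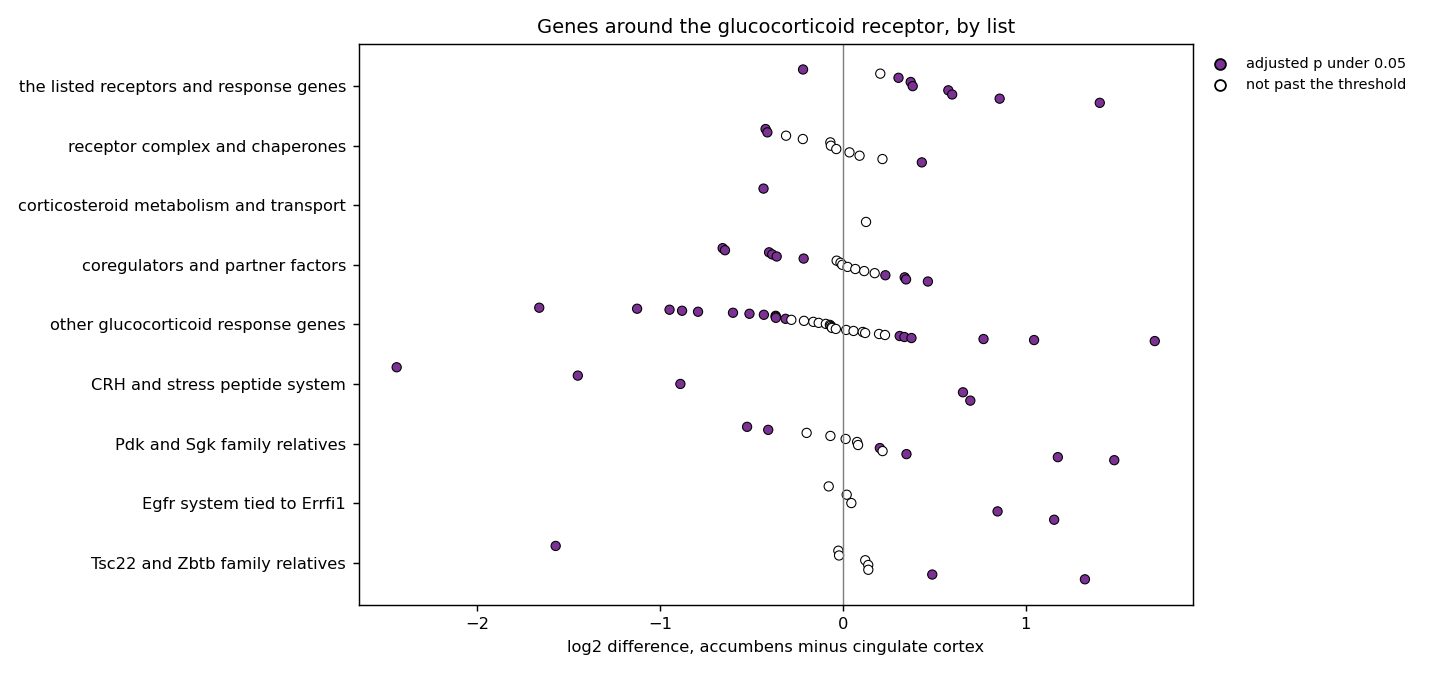
Log2 difference (NAc minus ACC) of each tested gene, 1 row per list, with the listed receptors and response genes (9 probe sets) on top. Filled points passed an adjusted p of 0.05. The other response genes range from -1.66 to 1.70. Adcyap1 and Crh, the lowest points among the stress peptide genes, were under the limit of 17.4 in the NAc, and Erbb3 and Pdk4 1369150_at in the ACC.

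The genes whose levels over the 12 arrays lay closest to those of each listed gene were found by the root mean square difference of log2 values, each probe set centred on its own mean. Structure and wash batch are shared by all 12 points, so likeness mostly restates the structure difference, and no p was computed. Nearest to Nr3c2 were Usp3 (0.079), Fbxo39 (0.0955) and Uimc1 (0.100), and nearest to Fkbp5 1388901_at were Atp10d (0.117), Bspry (0.118) and Loricrin (0.120). Tsc22d3 was closest to Narf (0.0814), Nudt22 (0.0848) and Ppa1 (0.0867), and Errfi1 to Gnb5 (0.0979), Tsnax (0.102) and Fstl1 (0.103). Pdk4 1378074_at had Tcaf1 (0.155), Gnb4 (0.167) and Myc (0.194). The nearest to Sgk1 were Nt5e (0.217), the serotonin receptor gene Htr1d (0.244) and Mbp, the myelin basic protein (0.256). The spread of Sgk1 around its own mean was 0.770. This Mbp probe set differed between the structures by 1.33 on the log2 scale. It is not the Mbp probe set among the oligodendrocyte markers, which averaged 4360 ± 599 in the NAc and 3283 ± 111 in the ACC.

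The second comparison asked what TsA did to these genes in each structure. In the NAc 0 of the 9 probe sets passed and in the ACC 0 of 9, as did 0% of all 18625 probe sets in either structure. At an unadjusted p under 0.05 stood 408 probe sets in the NAc (2.19%) and 851 in the ACC (4.57%). The listed genes are therefore given as values, with the interval that these arrays allow. With 3 arrays against 3, the 95% intervals of the listed probe sets were wide, and a p that misses the threshold does not show that TsA left a gene as it was.

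Neither receptor gene passed. Nr3c1 1368221_at averaged 264 ± 31.6 with TsA and 270.03 ± 65.4 with vehicle in the NAc (SD, n = 3 each), a log2 difference of -0.01 with an interval from -0.46 to 0.43. In the ACC it averaged 251 ± 31.4 with TsA and 213 ± 67.2 with vehicle, a difference of 0.26 (-0.19 to 0.70). Nr3c2 averaged 197 ± 21.4 with TsA and 178 ± 14.5 with vehicle in the NAc (0.13, from -0.10 to 0.37). In the ACC it had 125 ± 2.76 with TsA and 111 ± 11.5 with vehicle (0.15, from -0.08 to 0.39). The TsA and vehicle arrays overlapped for both genes in both structures.

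In the ACC Nr3c1 1368221_at stood furthest from 0 among the listed genes, at 0.26. In the NAc, in the fit without a batch block, this was Fkbp5. In the NAc its probe set 1388901_at averaged 220 ± 16.3 with TsA and 179 ± 25.0 with vehicle (SD, n = 3 each), a log2 difference of 0.28 ± 0.13 (limma, unadjusted p = 0.0487, adjusted p = 1.00), with overlapping groups. At 1380611_at it averaged 136 ± 13.8 with TsA and 110 ± 14.7 with vehicle, a difference of 0.27 ± 0.13 (limma, unadjusted p = 0.0524). The 3 TsA arrays of that probe set all lay above the vehicle arrays, the lowest at 124 with TsA and the highest at 122 with vehicle. Such a separation was seen in the NAc in 3.01% of all probe sets (5.48% in either direction), and in the ACC, where it held for 0 of the 10 listed probe sets, in 12.4% in either direction. In the ACC the differences were 0.17 ± 0.13 at 1388901_at (136 ± 7.78 with TsA and 120.3 ± 20.9 with vehicle) and 0.10 ± 0.13 at 1380611_at (100.04 ± 12.997 with TsA and 91.8 ± 9.80 with vehicle). Averaged over both structures the effect was 0.22 ± 0.09 at 1388901_at (limma, unadjusted p = 0.0292, adjusted p = 1.00). Over all probe sets that average stood at an unadjusted p under 0.05 in 2.77%, and 0% passed.

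The wash batches weigh on these values as well. In batch 3, the only one with both treatments of the NAc, the 3 TsA arrays stood 0.08 above the single vehicle array at Fkbp5 1388901_at and 0.21 above it at 1380611_at. In batch 1 the single TsA array of the ACC stood 0.08 above the 3 vehicle arrays at 1388901_at and at -0.07 from them at 1380611_at. With 1 array on a side these are values without a test, and the fit with batch as a block rests on the same arrays.

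Of 10 lists of cell type markers, the sums of 1 separated the treatments in the NAc and those of 2 in the ACC. Over all probe sets such a separation was seen in 5.48% in the NAc and 12.4% in the ACC, in either direction. So few lists do not tell these counts apart from those shares. In the NAc the summed markers of septum, pallidum and diencephalon were 767 to 849 with TsA and 616 to 746 with vehicle, without overlap, as at Fkbp5 1380611_at. Of the 6 tested 5 lay above 0 and 1 below, and Nts alone averaged 311 ± 51.5 with TsA and 216 ± 35.3 with vehicle. On ACC arrays the markers of septum, pallidum and diencephalon summed to 636 to 661 with TsA and 676 to 694 with vehicle. There 3 lay above 0 and 3 below, and the brightest, Lhx2, averaged 505 ± 17.0 with TsA and 549 ± 28.1 with vehicle. Sums that lean on 1 bright gene do not stand for a cell type. ACC markers of microglia and macrophages summed to 835 to 966 with TsA and 988 to 1186 with vehicle, with 1 of 8 above 0 and 7 below. The sums of the other marker lists overlapped between the treatments, and the part of these cells in the values of Fkbp5 was not tested.

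None of the other response genes separated the treatments. Sgk1 averaged 1218 ± 160.04 with TsA and 1196 ± 483 with vehicle in the NAc, a log2 difference of 0.09 (-0.46 to 0.65), and 444 ± 62.2 with TsA and 439 ± 140.4 with vehicle in the ACC, 0.06 (-0.50 to 0.61). Tsc22d3 differed by 0.08 in the NAc (-0.17 to 0.34) and 0.01 in the ACC (-0.24 to 0.26). Errfi1 differed by 0.02 in the NAc (-0.27 to 0.31) and by -0.05 in the ACC (-0.34 to 0.23). Pdk4 had 0.22 at 1378074_at and 0.20 at 1369150_at in the NAc, with intervals from -0.27 to 0.71 and from -0.07 to 0.46, and -0.01 at both in the ACC. Within batch 3, where NAc vehicle is array 3 alone, Sgk1 stood 0.62 and Pdk4 1378074_at 0.68 above vehicle. That array had the lowest Sgk1 and Pdk4 1378074_at signals of its group.

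**Figure D4:**
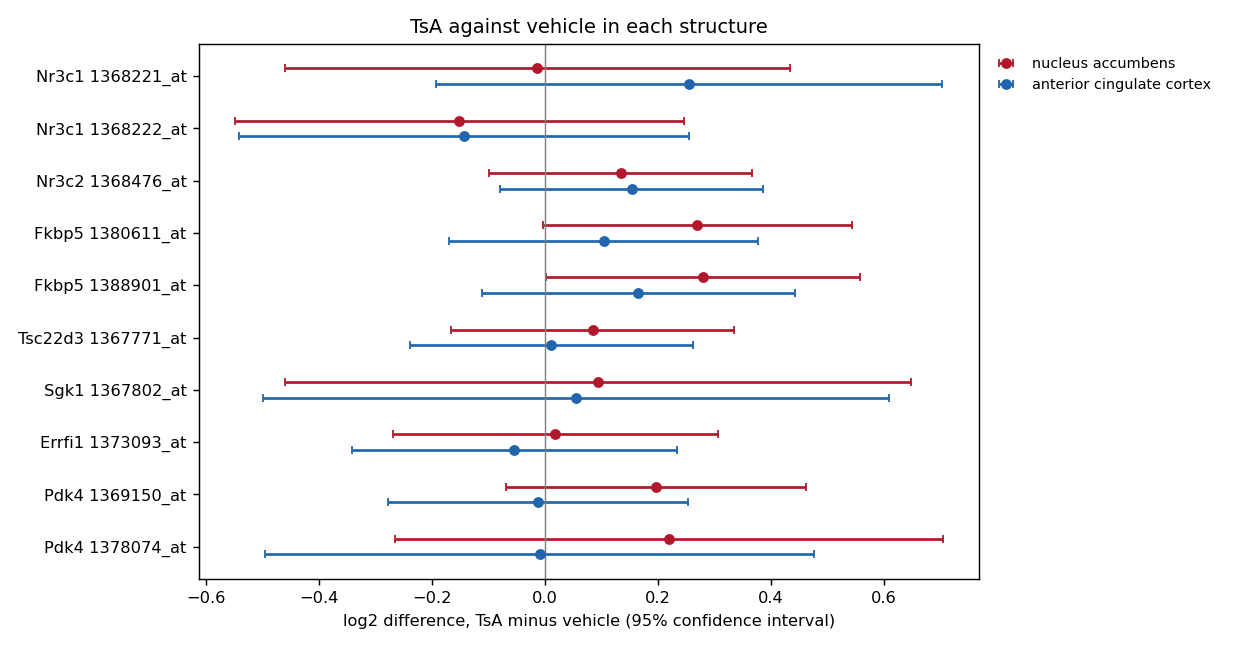
Log2 difference (TsA minus vehicle) with its 95% confidence interval for the 10 probe sets, in the NAc (upper of each pair) and the ACC (lower). Every interval but that of Fkbp5 1388901_at in the NAc, which runs from 0.00 to 0.56, spans 0, and none passed the adjusted threshold.

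A test of whether the effect of TsA differed between the structures (NAc minus ACC) called 0 of the 9, as 0% of all probe sets, with 662 (3.55%) at an unadjusted p under 0.05. The listed probe sets ranged from -0.27 ± 0.29 for Nr3c1 1368221_at to 0.23 ± 0.32 for Pdk4 1378074_at, and Fkbp5 1388901_at had 0.11 ± 0.18 (limma, adjusted p = 0.883).

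The 8 surrounding lists held no call for TsA in either structure. The smallest p among them in the NAc belonged to Mc4r, at 50.1 ± 5.45 with TsA and 36.5 ± 4.73 with vehicle (0.33 ± 0.11, limma, unadjusted p = 0.00858, adjusted p = 1.00). Hbegf, a ligand of the EGF receptor, had 0.29 in the NAc and -0.18 in the ACC. The acetyltransferase gene Crebbp had -0.22 in the NAc, and its relative Ep300 -0.25 in the ACC. In the ACC the smallest p was that of Mical2, at 47.9 ± 6.10 with TsA and 35.3 ± 8.99 with vehicle (0.33 ± 0.14, unadjusted p = 0.0402, adjusted p = 0.751). The cyclophilin gene Ppid, a partner of Hsp90, had 0.46 ± 0.24 there (adjusted p = 0.751). Other genes with the smallest p of their lists, none of them called and given as values only, were Sult1a1 (0.33), Ehd3 (0.31), Dnajb1 (0.23), Zbtb44 (0.23), Jun (0.19), Fkbp4 (0.18), Pdk2 (0.14), Hsd11b1 (0.12), Zbtb18 (0.12), Nedd4 (0.07), Adcyap1 (-0.14, under the limit there), Abcb1a (-0.17) and Egfr (-0.21) in the NAc. In the ACC they were Pdha1 (0.21), Med14 (0.19), Ptges3 (0.16), Zbtb38 (0.14), Abcb1a (0.11), Adcyap1r1 (0.07), Egfr (-0.09), Pdk3 (-0.11), Hsd11b1 (-0.14), Crhbp (-0.15), Tsc22d4 (-0.20) and Cdkn1c (-0.27). Hsd11b1 and Abcb1a are named only because their list held 2 tested genes. Their unadjusted p were 0.485 and 0.474 in the NAc and 0.425 and 0.642 in the ACC (limma).

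Within the groups, 3 of the response genes, Pdk4 by its brighter probe set alone, were high on the same arrays. Sgk1, Pdk4 1378074_at and Errfi1 each had their highest signal on NAc TsA array 3, NAc vehicle array 2, ACC TsA array 3 and ACC vehicle array 2. The dimmer Pdk4 probe set, 1369150_at, shared the highest array with Sgk1 in 1 of the 4 groups, NAc vehicle. The pattern was noticed after the values were seen. Of all 18625 probe sets tested, 149 (0.8%) were highest on the same 4 arrays, Sgk1 among them. In the lists these were Ndrg1, of 12 relatives of Pdk4 and Sgk1, and Gpd1 and Cdkn1a, of 34 other response genes. Every other list held 0, those of cell type markers included. With 17 genes or fewer in each and a share of 0.8% over all probe sets, a 0 there tells little.

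The spread was widest with vehicle. Sgk1 deviated from its group mean by 0.60 on NAc vehicle array 2 and by -0.53 on array 3, and by 0.45 on ACC vehicle array 2 and -0.45 on array 3, on the log2 scale. With TsA its deviations lay between -0.19 and 0.19 in the NAc and between -0.14 and 0.21 in the ACC. Its pooled SD within groups was 0.386, wider than in 95.7% of the probe sets, and that of Pdk4 1378074_at was 0.325, wider than in 92.3%. On ACC vehicle array 2 all 5 response genes (Fkbp5, Tsc22d3, Sgk1, Errfi1 and Pdk4, each by its brightest probe set) were at their highest of the group. On NAc vehicle array 2 this held for 3 of the 5, and for 4 of 5 on NAc TsA array 3 and on ACC TsA array 3. Sgk1, Errfi1 and Pdk4 are 3 of the 5 and were what marked these 4 arrays, so at least 3 of 5 was fixed beforehand. Only Fkbp5 and Tsc22d3 were free to vary. By their brightest probe sets both were highest on ACC vehicle array 2, Fkbp5 alone on the TsA arrays 3, and neither on NAc vehicle array 2. On ACC TsA array 3 the lead of Fkbp5 1388901_at was slight, at 140.292 against 140.274 on array 2. The dimmer Fkbp5 probe set, 1380611_at, was highest on both vehicle arrays 2 and on ACC TsA array 3. On NAc TsA array 3 it was the lowest of its group.

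Nr3c1 1368221_at was at its lowest of the group on ACC vehicle array 2 and in the middle of the group on the other 3 of these arrays. Of 10 lists of cell type markers, 0 had their highest summed signal on all 4 arrays. On both vehicle arrays 2 the sums of 3 lists were highest. The blood markers stood furthest out, at 2972 on NAc vehicle array 2 (the others 1232 and 2867) and 3062 on ACC vehicle array 2 (the others 1841 and 2360). Oligodendrocyte markers summed to 19049 on NAc vehicle array 2 (the others 16363 and 16910) and 8039 on ACC vehicle array 2 (the others 6653 and 7139), and striatal markers deviated by 0.22 and 0.07 on the log2 scale. Cortical markers were lowest on NAc vehicle array 2, by -0.80. On both TsA arrays 3 the sums of 5 other lists were highest, those of cortical neurons, vessels, meninges and fibroblasts, choroid plexus and ependyma (mostly Enpp2), and septum, pallidum and diencephalon. The part of these cells in the spread was not tested. Whether pools of the same number share rats is not stated, and vehicle array 2 of both structures lay in different wash batches.

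**Figure D5:**
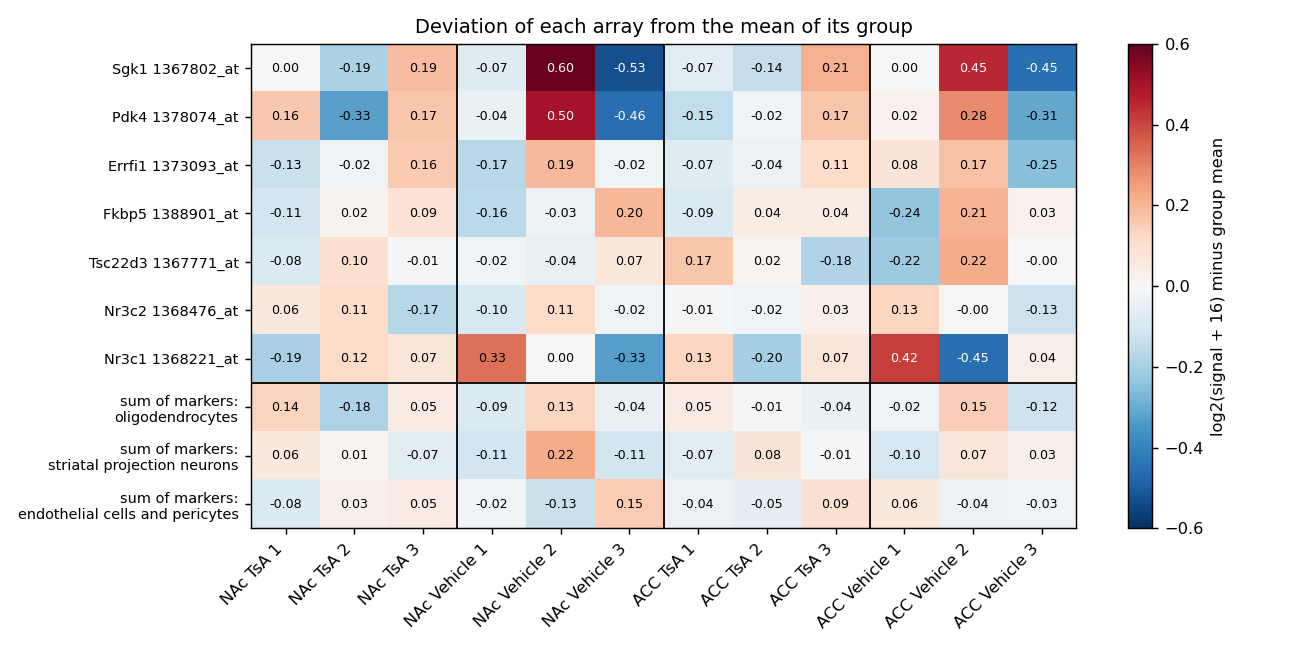
Deviation of each array from the mean of its group, in log2(signal + 16) units (red above, blue below), for 7 probe sets and for the summed signals of 3 marker lists. Sgk1, Pdk4 1378074_at and Errfi1 are positive together on array 2 of both vehicle groups and array 3 of both TsA groups.

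Promoters are printed for Sgk1, Pdk4 and Errfi1, which were high on the same arrays (Pdk4 at 1378074_at), and for Fkbp5 and Tsc22d3 beside them. They come from the RefSeq promoter table for GRCr8. It held 11 start sites for 6 of the 8 genes, Nr3c1 included, and 250 bases before each were searched on both strands. The sequences run 5′ to 3′ on the gene's strand and end just before the start site. Capitals mark a TATA box (TATAAA), a GC box (GGGCGG) or the core of a glucocorticoid response element (ACANNNTGT), each on either strand.
Sgk1 promoter (chr1:24804832-24805081, minus strand): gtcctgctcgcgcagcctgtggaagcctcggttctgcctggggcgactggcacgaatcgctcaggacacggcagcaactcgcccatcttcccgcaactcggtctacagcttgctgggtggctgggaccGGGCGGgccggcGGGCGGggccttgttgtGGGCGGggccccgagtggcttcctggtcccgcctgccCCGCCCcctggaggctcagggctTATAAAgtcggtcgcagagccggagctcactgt
Pdk4 promoter (chr4:34568330-34568579, minus strand): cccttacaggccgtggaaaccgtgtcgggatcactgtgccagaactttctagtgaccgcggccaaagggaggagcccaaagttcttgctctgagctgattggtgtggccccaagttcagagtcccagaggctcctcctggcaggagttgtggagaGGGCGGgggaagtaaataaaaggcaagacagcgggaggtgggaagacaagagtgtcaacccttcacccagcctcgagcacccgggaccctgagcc
Errfi1 promoter (chr5:166606591-166606840, plus strand): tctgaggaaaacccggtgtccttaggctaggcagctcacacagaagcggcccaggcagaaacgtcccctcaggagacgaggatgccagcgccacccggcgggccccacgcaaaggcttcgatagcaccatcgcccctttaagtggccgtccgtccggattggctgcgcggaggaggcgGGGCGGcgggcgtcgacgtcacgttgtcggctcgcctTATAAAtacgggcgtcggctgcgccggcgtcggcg
Fkbp5 promoter (chr20:6543556-6543805, minus strand): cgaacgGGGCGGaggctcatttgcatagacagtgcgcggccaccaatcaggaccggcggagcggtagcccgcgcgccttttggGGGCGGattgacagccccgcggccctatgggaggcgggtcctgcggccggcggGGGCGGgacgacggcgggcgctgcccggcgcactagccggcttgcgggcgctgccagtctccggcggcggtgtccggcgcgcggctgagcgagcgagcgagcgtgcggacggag
Tsc22d3 promoter (chrX:109065431-109065680, minus strand): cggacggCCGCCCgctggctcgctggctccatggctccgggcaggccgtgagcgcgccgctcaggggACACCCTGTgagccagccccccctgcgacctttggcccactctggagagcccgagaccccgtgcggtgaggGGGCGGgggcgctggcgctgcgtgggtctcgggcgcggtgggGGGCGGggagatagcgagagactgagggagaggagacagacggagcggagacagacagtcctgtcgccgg

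The full palindromic response element (AGAACA, 3 bases of any kind, then the reverse complement of AGAACA) stood in 0 of the 11 windows and in 0.0120% of all 33469 in the table. Its core ACANNNTGT, which the full element contains, was present in 1 of the 11, that of Tsc22d3 printed above, and in 5.81% of all. The single arm AGAACA stood in 0 of 11 and 17.5% of all. A GC box stood in 9 of the 11 and 30.5% of all, and a TATA box in 4 of the 11 (Errfi1, Sgk1 at 2 starts, and Tsc22d3 at another start) and 12.9% of all. The cyclic AMP response element TGACGTCA was in 0 of the 11 and 1.59% of all. Among the genes highest on the same arrays, the printed windows of Sgk1 and Errfi1 share a TATA box close to the start. The Pdk4 window holds no TATAAA, while all 3 have a GC box. Sgk1 also had starts that are not printed. The window at chr1:24805571-24805820 has GC boxes and no TATA box, and that at chr1:24807232-24807481 a TATA box and no GC box. G and C made up 39.2% to 78.4% of the 11 windows, against a mean of 52.2% over all in the table. A match describes letters in this window and no match says nothing of elements elsewhere.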

How the data were processed

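Total RNA of 12 pools of 2 rats was measured on 12 arrays in 4 groups of 3, taken from the labels. The deposited values are intensity values on a linear scale: per the submitters' processing notes, images were read with GCOS 1.4 and probe sets summarised by MAS5. The 2% trimmed mean was 100.03 on every array, and medians were 26.8 to 33.1. Detection calls and scanner values were not used here, nor was any column of other samples (0).

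Of 31099 probe sets 57 controls were left out. The platform annotation gave 20826 a single symbol, 436 several and 9780 none. Dim probe sets (the lowest 40% by mean over the 12 arrays) were dropped, which kept 18625 (10382 genes by their brightest probe set). Log2(signal + 16) was fitted with limma 3.58.1 in R 4.3.3, with a mean per group, eBayes with trend, 8 residual degrees of freedom, two-sided tests and Benjamini-Hochberg adjustment. The structure comparison averages over treatments. The model was tested on simulated data. Alternatives changed the constant, the filter, the scaling, the variance model, the wash batch (found from station and time in the run records), the replicate number as a block, and each array left out. Values within batches 1 and 3 were added after the data were seen. All listed probe sets are named. From the 8 lists, up to 4 genes per direction with the smallest p among those that passed are named, 2 per list for TsA, and a few others (Hsp90ab1, Fkbp4, Abcb1a, Per1, Cdkn1a and Stat3) were chosen after their values were seen. Members, lists and tests were chosen with earlier results of these data known. Python 3.11.15 with numpy 2.4.6, pandas 2.3.3 and matplotlib 3.10.9 served for the rest.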

Additional observations from a re-analysis of the deposited data

How the results depend on the processing

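The structure comparison (NAc minus ACC) called 8 of the 9 listed probe sets and 8349 of all 18625. With wash batch as a block these counts were 3 and 4199, and the cause was not tested. Leaving out 1 array at a time gave 7 to 8 listed probe sets and 7509 to 9048 of all. Constants of 1 and 64, quantile or median scaling and no variance trend gave 7 to 8 listed probe sets and 8170 to 8422 of all 18625. Without a filter 7 listed probe sets passed and 9635 of all, and with a filter of 20% 8 passed and 9715 of all. These 2 fits tested more than 18625 probe sets, so their counts cannot be set beside the others. Tsc22d3 lost its call without a filter (adjusted p = 0.0628), with quantile scaling (0.0944) and without the trend (0.0606). It also lost it without ACC vehicle array 2 or 3, ACC TsA array 1 or 2, NAc vehicle array 1 or 2, or NAc TsA array 1 or 3 (adjusted p from 0.0678 to 0.119). Fkbp5 1380611_at lost its call with arrays centred on their medians (0.0988). None of the 9 listed probe sets changed direction in this comparison in any of the fits run. Scaling moved the split of all calls: 4551 higher and 3798 lower as deposited, 3886 and 4284 after quantile normalization, and 3156 and 5266 after median centring.

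With the replicate number as a block the structure comparison called 8 listed probe sets and 8995 of all. Same-numbered arrays did not deviate together throughout: the correlations of their deviations were 0.663, 0.0762 and 0.0875 between structures with vehicle, 0.117, 0.0308 and 0.163 with TsA, 0.337, 0.482 and -0.114 between treatments in the ACC and -0.0748, -0.0626 and 0.0563 in the NAc. In 15 of 24 such look-ups an array lay closest to the array of its own number, a hint from the data and not the design, and the number is treated as a name only.

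For TsA, in each structure, on average and as a difference between structures, 0 probe sets were called under every alternative, the replicate block included. Of 189 recomputed values per TsA comparison, 8 to 16 changed sign, none of them called.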
